A study of Mus musculus with 6 samples.

Results

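Cyclin D1, cyclin D2 and cyclin D3 (Ccnd1, Ccnd2, Ccnd3) bind and activate the kinases CDK4 and CDK6 (Cdk4, Cdk6), and the active kinases phosphorylate the retinoblastoma protein RB and its relatives p107 and p130, which then release E2F transcription factors that switch on the genes of DNA replication. The INK4 inhibitors, here p16INK4a (Cdkn2a), p15INK4b (Cdkn2b) and p18INK4c (Cdkn2c), bind CDK4 and CDK6 and keep them from D-type cyclins, whereas the CIP/KIP inhibitors p27KIP1 (Cdkn1b) and p57KIP2 (Cdkn1c) bind whole cyclin-CDK complexes and block cyclin E and cyclin A with CDK2. In fibroblasts D-type cyclins follow growth factor signals, p27KIP1 is known for its accumulation in resting and dense cultures, and the products of Cdkn2a are known for their rise as mouse embryonic fibroblasts (MEFs) age in culture. These 10 genes were chosen by symbol, as the D-type cyclins, their kinases and the CDK inhibitors of the above list, out of 51499 loci in the count table. Each symbol matched 1 locus, and all 10 passed the filter on low counts.

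The study asked how cells respond to acute loss of YME1L, a protease of the inner mitochondrial membrane. RNA was sequenced from wild-type (WT) MEFs 72 h after transfection with a scrambled siRNA (Scr siRNA, 3 libraries) or with an siRNA against Yme1l (Yme1l siRNA, 3 libraries). The labels describe the cells as 3T3 immortalized, whereas the study's methods describe MEF lines made with SV40 large T antigen, with the WT line being a single clone, so the route of immortalization is given differently by these sources. This bears on the genes described here, because SV40 large T antigen binds RB, p107, p130 and p53. All 6 libraries share this WT line, the transfection and the harvest time, and no untransfected cells are among them. The methods describe cells seeded at equal density and grown to confluency over the same period, and cell numbers at harvest were not analysed here. The study reports that loss of YME1L reduced cell growth, in a proliferation assay that compared MEFs by genotype. The growth of these siRNA-treated cells was not analysed here.

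The libraries held 37260605 to 45205207 counts, and edgeR's quasi-likelihood test was run on 14499 loci. Levels are given as CPM (each library's counts scaled to the same total, adjusted by TMM factors), fold changes on the log2 scale are Yme1l siRNA against Scr siRNA, and "called" means a Benjamini-Hochberg adjusted p under 0.05 over all loci tested. The targeted gene, Yme1l1, had 171 CPM ± 0.425 (SD, n = 3) with Scr siRNA and 33.4 CPM ± 10.9 with Yme1l siRNA (log2 fold change -2.36, SE 0.20, adjusted p = 3.87e-05 by edgeR). Scr siRNA replicate 3 stood furthest from the other Scr siRNA libraries, with chi-square values per degree of freedom (sampling noise alone gives about 1) of 52.3 and 41.4 against replicates 1 and 2, which differed from each other by 7.55, and with 2.197% of its counts on mtDNA loci and their copies against 4.11% and 3.92%, which puts it within the range of the Yme1l siRNA libraries (2.08% to 2.79%). Among the Yme1l siRNA libraries this value ran from 19.6 between replicates 1 and 2 to 49.2 between replicates 2 and 3. The fibroblast identity in the labels was checked on 8 marker genes. Their summed level was 33446 to 40597 CPM with Scr siRNA and 17963 to 22398 CPM with Yme1l siRNA, 6 of the 7 tested fell (Col1a1, Col1a2, Col3a1, Pdgfra, Pdgfrb and Fn1), and Thy1 had at most 1 count in any library. Epithelial markers summed to 0.0924 to 0.166 CPM and 0.807 to 1.33 CPM, and endothelial markers to 0.450 to 0.721 CPM and 1.43 to 1.92 CPM. Krt8, the only epithelial marker tested, had 1 count in each Scr siRNA library and 23 to 31 with Yme1l siRNA. Of the 2 endothelial markers tested, Kdr had 3 to 9 counts with Scr siRNA and 38 to 43 with Yme1l siRNA, and Pecam1 was not called. Krt8 and Kdr passed the filter on low counts only through their Yme1l siRNA libraries, so their higher counts are a description and not a test. Immune markers summed to 42.6 to 53.04 CPM and 25.7 to 58.2 CPM, nearly all of it Cd68, with Adgre1 and Cd3e at 0, and skeletal muscle markers to 3.30 to 3.77 CPM and 2.37 to 3.36 CPM, all of it Des, with Myod1 and Myog at 0. The part of these shifts in the results for the cyclins and inhibitors was not tested.

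With Yme1l siRNA, 3 of the 10 genes rose (Ccnd1, Ccnd3, Cdk6) and 5 fell (Cdkn2b, Cdkn2a, Cdkn1b, Ccnd2, Cdk4), while Cdkn1c and Cdkn2c were not called. The number that fell was 3 without Scr siRNA replicate 3, Yme1l siRNA replicate 1 or Yme1l siRNA replicate 2, as Ccnd2 and Cdk4 were then not called. The changes ran from a cyclin D1 transcript at 2.06 times to a p15INK4b transcript at 0.416 of its Scr siRNA level. The share called, 80.0% of the 10 genes, stands beside 58.0% of all loci tested, of which 28.4% were called higher and 29.6% lower. The groups of 3 did not overlap for the 8 called genes, as for 65.4% of all loci. The median log2 fold change of the 10 genes was -0.13, beside 0.01 for all loci. Because these are bulk samples, fewer cells expressing a transcript and less transcript per cell cannot be told apart. The labels do not say whether the 3 libraries of a group came from separate cultures, and the study's methods describe the replicates of its MEF experiments in general as independent cultures of the line, so p-values measure the spread between such cultures of 1 clone.

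**Figure D1:**
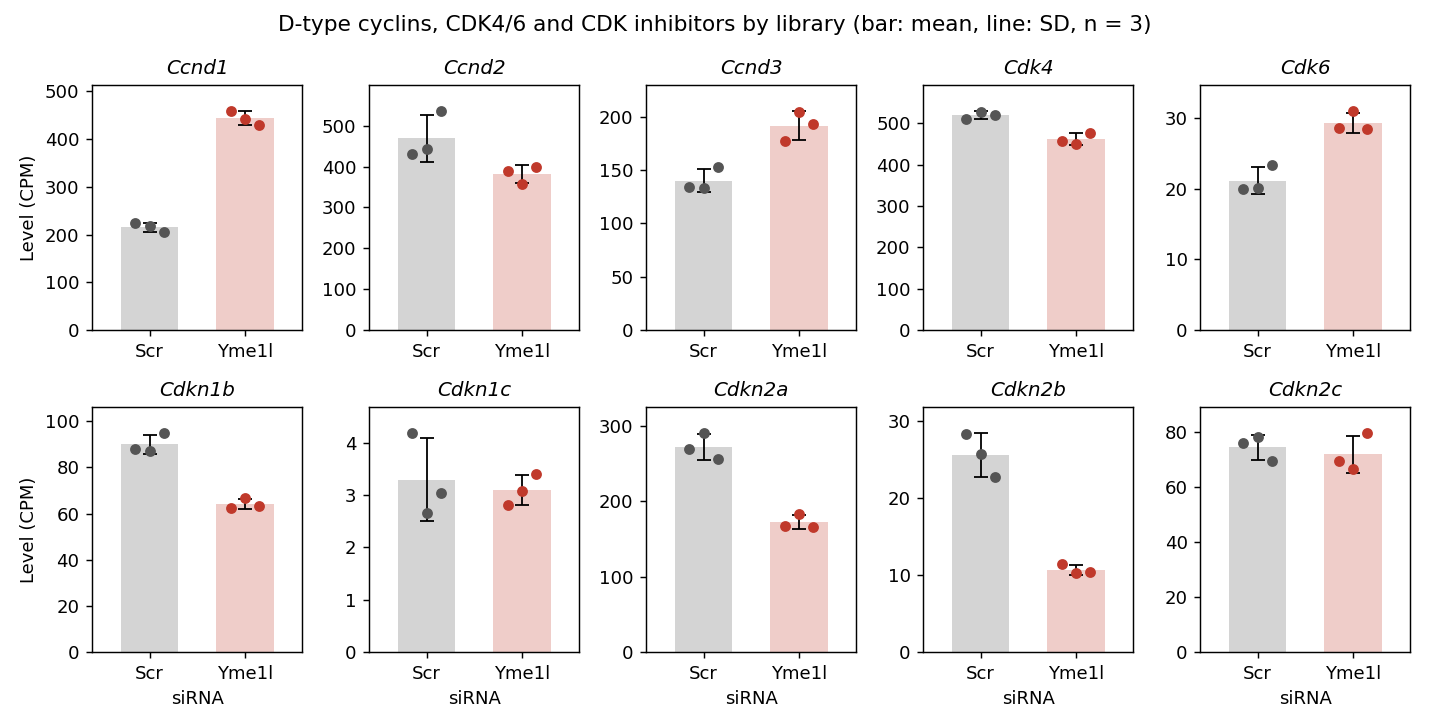
Level of each gene in CPM (y axis, starting at 0 and scaled for each gene) in the 3 Scr siRNA libraries (grey) and the 3 Yme1l siRNA libraries (red), with each point 1 library in the order of its replicate number, the bar the mean and the line the SD. All 3 Yme1l siRNA points lie above the Scr siRNA points for Ccnd1, Ccnd3 and Cdk6, and below them for Ccnd2, Cdk4, Cdkn1b, Cdkn2a and Cdkn2b, while the groups overlap for Cdkn1c and Cdkn2c.

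Among the D-type cyclins, Ccnd1 rose, Ccnd3 rose less and Ccnd2 fell slightly. Ccnd1 (XLOC_042267, mm10 chr7:144929931-144939925, minus strand), which encodes the cyclin best known for following growth factor and RAS-ERK signals, had 223, 218 and 205 CPM with Scr siRNA and 458, 442 and 428 CPM with Yme1l siRNA. Every Yme1l siRNA library was thus far above every Scr siRNA library, and the libraries within each group lay close together (coefficients of variation 4.41% and 3.30%). The fold change was 2.06 (log2 1.04, SE 0.07, 95% interval 0.88 to 1.20, adjusted p = 1.34e-05 by edgeR), and 14.99% of all loci tested had a larger absolute log2 fold change.

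Ccnd3 (XLOC_019328, chr17:47505051-47599691, plus strand), the D-type cyclin with known roles in lymphocytes and muscle, had 134, 133 and 153 CPM with Scr siRNA and 177, 204 and 193 CPM with Yme1l siRNA. The lowest Yme1l siRNA library was above the highest Scr siRNA library, Scr siRNA replicate 3. On the log2 scale it rose by 0.45 (SE 0.09, 95% interval 0.26 to 0.65, adjusted p = 0.00212 by edgeR), a size that 46.7% of all loci exceeded in either direction.

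Ccnd2 (XLOC_037404, chr6:127125162-127152193, minus strand) encodes a cyclin known both as a target of growth signals and for its accumulation in arrested fibroblasts. Its level was 431, 442 and 535 CPM with Scr siRNA and 390, 358 and 399 CPM with Yme1l siRNA. The groups did not overlap, but Scr siRNA replicate 3 was set apart from the other Scr siRNA libraries by more than those were from the highest Yme1l siRNA library. Ccnd2 had a log2 fold change of -0.30 (SE 0.10, 95% interval -0.52 to -0.07, adjusted p = 0.0283 by edgeR). The call was lost without Scr siRNA replicate 3 (log2 fold change -0.20, adjusted p = 0.0700), without Yme1l siRNA replicate 1 (-0.31, adjusted p = 0.0713) and without Yme1l siRNA replicate 2 (-0.24, adjusted p = 0.0854).

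The balance of cyclin D1 and cyclin D2 transcripts therefore differed between the groups. The ratio of Ccnd2 to Ccnd1 counts within a library, which does not depend on how libraries are scaled, had a geometric mean of 2.17 with Scr siRNA and 0.863 with Yme1l siRNA, a log2 difference of -1.33 (exact two-sided permutation test p = 0.1, the smallest that 3 against 3 libraries can give, 0.12 after adjustment over 6 ratios). The ratio of Ccnd3 to Ccnd1 differed by -0.59 on the log2 scale (exact permutation p = 0.1, adjusted 0.12). In both ratios the 3 libraries of one group lay wholly apart from the 3 of the other.

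Divided by the length of the annotated exons, Ccnd1 made up 43.7%, 42.7% and 36.9% of the summed D-type cyclin counts per kilobase with Scr siRNA and 61.2%, 60.5% and 58.6% with Yme1l siRNA (means 41.1% ± 3.65 and 60.1% ± 1.36, SD, n = 3). The share of Ccnd2 was 44.6% ± 3.24 and 26.0% ± 1.38. By this length cyclin D1 was the most abundant of the 3 with Yme1l siRNA, and its Scr siRNA libraries overlapped with those of cyclin D2. The share of Ccnd3 was 14.3% ± 0.432 and 14.0% ± 1.16, about the same share of a larger sum. The summed level per kilobase of the 3 cyclins with Yme1l siRNA was 1.40 times that with Scr siRNA. With the longest annotated transcript as the length, Ccnd1 had 34.4% ± 3.31 and 51.8% ± 1.45, Ccnd2 had 44.0% ± 2.86 and 26.4% ± 1.45 and was above Ccnd1 in every Scr siRNA library, and Ccnd3 had 21.6% ± 0.490 and 21.7% ± 1.65, so the size of these shares depends on the length used and the direction of the shift towards Ccnd1 does not.

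**Figure D2:**
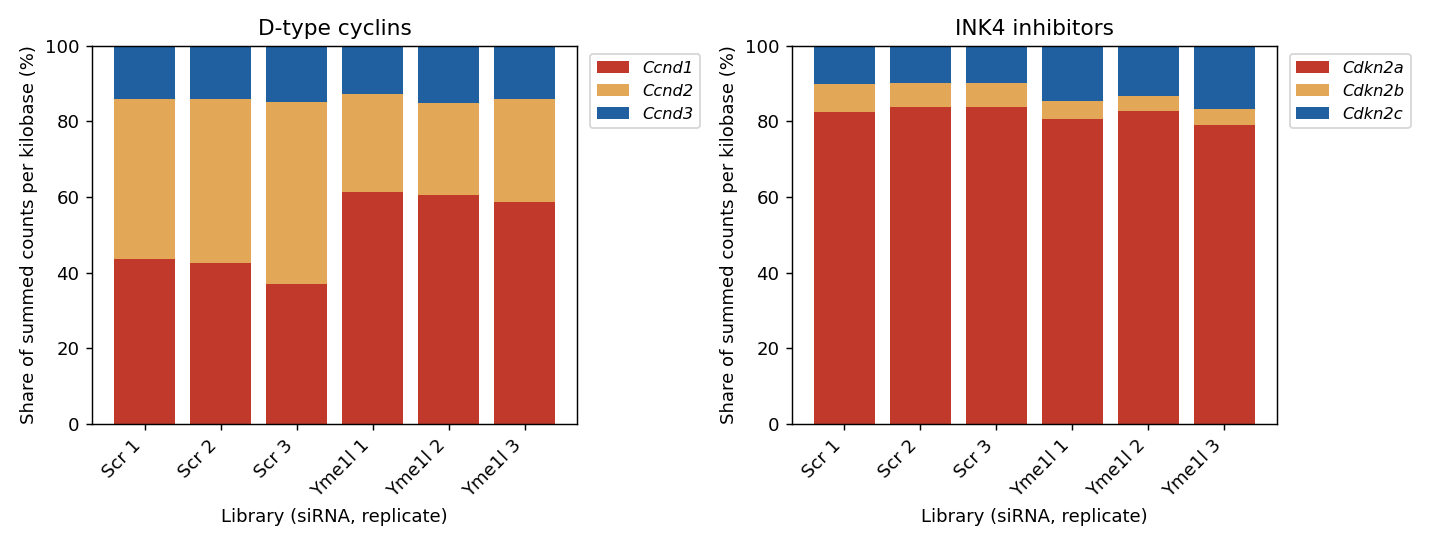
Share of each gene (y axis, %) in the summed counts per kilobase of annotated exon of the D-type cyclins (left) and of the INK4 inhibitors (right), with 1 stacked bar for each of the 6 libraries. The Ccnd1 share is 36.9% to 43.7% in the Scr siRNA libraries and 58.6% to 61.2% in the Yme1l siRNA libraries, and the mean Cdkn2a share of the INK4 sum is 83.4% and 80.9%.

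Several D-type cyclin loci share exon sequence with a gene on the other strand. Libraries were made with a kit that keeps the strand, but whether the counting used it is not given in the sources used here. Ccnd1 shares 1100 exon bases with LTO1 (listed as Oraov1), which had 817 to 919 counts with Scr siRNA and 523 to 630 with Yme1l siRNA, against 7859 to 9663 and 18056 to 20302 counts for Ccnd1. Ccnd3 shares 361 exon bases with Bysl, whose counts were 1582 to 2025 and 2780 to 3120, against 4797 to 6446 and 7854 to 8878 for Ccnd3. Bysl thus lay higher with Yme1l siRNA as Ccnd3 did, and reads of the shared bases cannot be assigned without strand. The 2 antisense genes over Ccnd2 had at most 6 counts in any library. The pseudogene Ccnd3-ps, 96.3% identical to Ccnd3 over 881 bases, had at most 5 counts.

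Of the 2 kinases, Cdk6 rose and Cdk4 was slightly lower. CDK4 and CDK6 are close relatives that both bind all D-type cyclins, and the level of one against the other is known to differ between cell types. Cdk4 (XLOC_004536, chr10:127063534-127067920, plus strand) had 510, 529 and 521 CPM with Scr siRNA and 456, 450 and 478 CPM with Yme1l siRNA. The groups did not overlap, and the difference was small beside that of Ccnd1. Cdk4 had a log2 fold change of -0.17 (SE 0.07, 95% interval -0.32 to -0.02, adjusted p = 0.04997 by edgeR), which only just passed the threshold, and 77.4% of all loci had a larger change. The call was lost when any library other than Yme1l siRNA replicate 3 was left out: the log2 fold change was -0.19 without Scr siRNA replicate 1 (adjusted p = 0.0985), -0.17 without Scr siRNA replicate 2 (adjusted p = 0.138) and -0.17 without Scr siRNA replicate 3 (adjusted p = 0.0780). It was -0.16 without Yme1l siRNA replicate 1 (adjusted p = 0.156) and -0.15 without Yme1l siRNA replicate 2 (adjusted p = 0.113).

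Cdk6 (XLOC_031542, chr5:3341485-3531008, plus strand) had 19.9, 20.1 and 23.3 CPM with Scr siRNA and 28.7, 31.0 and 28.4 CPM with Yme1l siRNA. All Yme1l siRNA libraries were above all Scr siRNA libraries, from 726 to 984 counts with Scr siRNA to 1198 to 1346 counts with Yme1l siRNA. This is a log2 fold change of 0.47 (SE 0.09, 95% interval 0.27 to 0.67, adjusted p = 0.00183 by edgeR). The ratio of Cdk6 to Cdk4 counts was higher by 0.65 on the log2 scale with Yme1l siRNA, with the groups apart (exact permutation p = 0.1, adjusted 0.12). Cdk4 remained by far the more abundant transcript: per kilobase of exon, Cdk6 was 0.935% ± 0.0820 of the sum of both with Scr siRNA and 1.46% ± 0.107 with Yme1l siRNA (SD, n = 3). The sum of both with Yme1l siRNA was 0.892 times that with Scr siRNA. Cdk4 shares 641 exon bases with Tspan31 on the other strand, which had 5234 to 6058 counts with Scr siRNA and 5040 to 6315 with Yme1l siRNA, with overlapping ranges.

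The promoters of both kinases are shown because they differ in the E-box CACGTG, the letters bound by MYC with MAX and by related factors, which read the same on both strands. The 250 bases before each start site are given 5′ to 3′ on the strand of the gene, from RefSeq on GRCm38.p6 (mm10), with matches to any motif searched in capitals. Cdk4 is taken from chr10:127063285-127063534 (plus strand) and Cdk6 from chr5:3343643-3343892 (plus strand).
Cdk4: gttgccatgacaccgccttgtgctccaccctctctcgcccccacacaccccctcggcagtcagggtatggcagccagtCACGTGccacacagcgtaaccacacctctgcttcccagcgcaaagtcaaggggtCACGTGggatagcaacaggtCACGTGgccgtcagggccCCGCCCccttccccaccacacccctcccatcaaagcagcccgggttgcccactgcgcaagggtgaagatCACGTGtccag
Cdk6: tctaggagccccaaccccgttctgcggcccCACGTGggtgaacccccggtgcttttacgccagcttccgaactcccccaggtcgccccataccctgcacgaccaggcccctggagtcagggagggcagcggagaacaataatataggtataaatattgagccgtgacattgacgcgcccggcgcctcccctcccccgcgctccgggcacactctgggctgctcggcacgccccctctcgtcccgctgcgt

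The Cdk4 sequence holds 4 E-boxes, starting at -172, -118, -98 and -11 from the start site, and a GC box (GGGCGG, here on the opposite strand as CCGCCC) between the last of them at -80. The Cdk6 sequence holds 1 E-box, at -220 from the start site. Of the 32851 RefSeq promoters of 300 bases, which run from 250 bases before to 50 bases after the start site, 7.15% held at least 1 E-box and 0.0244% held 4 or more. Myc itself rose from 109 CPM ± 11.2 to 221 CPM ± 12.2 (SD, n = 3, log2 fold change 1.02, SE 0.09, adjusted p = 4.26e-05 by edgeR). Whether MYC acts on Cdk4 or Cdk6 in these cells was not tested. A match of letters is a description of the sequence and not a bound site.

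Cdkn2b and Cdkn2a, INK4 genes whose loci are 11645 bases apart on chromosome 4, both fell, and Cdkn2c, which lies elsewhere on that chromosome, was not called. Mtap, a neighbour of the Cdkn2a region, was not called either (log2 fold change -0.14, adjusted p = 0.199 by edgeR). Whether the position of the genes plays a part was not tested. Cdkn2b (XLOC_030730, chr4:89306299-89311039, minus strand) encodes p15INK4b, known as a target of TGF-beta signalling. It had 28.4, 25.7 and 22.8 CPM with Scr siRNA and 11.4, 10.2 and 10.3 CPM with Yme1l siRNA. Every Scr siRNA library lay far above every Yme1l siRNA library. The log2 fold change of -1.26 was the largest in size of the 10 genes (SE 0.10, 95% interval -1.50 to -1.03, adjusted p = 3.15e-05 by edgeR), and 10.4% of all loci tested exceeded it.

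Cdkn2a (XLOC_030729, chr4:89274471-89294653, minus strand) encodes 2 unrelated proteins from separate first exons and shared later exons: p16INK4a, the CDK4 and CDK6 inhibitor, and ARF, which binds MDM2 and so stabilizes p53. The files give 1 count for the whole locus, so the 2 transcripts cannot be told apart. The locus had 270, 290 and 256 CPM with Scr siRNA and 168, 182 and 165 CPM with Yme1l siRNA, with all Yme1l siRNA libraries well below all Scr siRNA libraries. This is a log2 fold change of -0.66 (SE 0.08, 95% interval -0.84 to -0.49, adjusted p = 0.000159 by edgeR). Cdkn2b fell further than its neighbour: the log2 ratio of Cdkn2b to Cdkn2a counts differed by -0.60, with the groups apart (exact permutation p = 0.1, adjusted 0.12).

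Cdkn2c (XLOC_030894, chr4:109660876-109667189, minus strand) encodes p18INK4c, an INK4 protein known from differentiating muscle and lymphoid cells. It had 76.0, 78.1 and 69.4 CPM with Scr siRNA and 69.5, 66.7 and 79.6 CPM with Yme1l siRNA. The groups overlapped, with both the highest and the lowest library being Yme1l siRNA libraries. The log2 fold change was -0.05 (SE 0.09, adjusted p = 0.641 by edgeR), and its 95% interval of -0.25 to 0.15 leaves room for changes of up to that size either way. Against Cdkn2a, Cdkn2c counts were higher by 0.61 on the log2 scale with the groups apart (exact permutation p = 0.1, adjusted 0.12).

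Per kilobase of exon, Cdkn2a made up 83.4% ± 0.753 of the INK4 sum with Scr siRNA and 80.9% ± 1.85 with Yme1l siRNA (SD, n = 3). The share of Cdkn2b was 6.62% ± 0.603 and 4.24% ± 0.355, and that of Cdkn2c was 9.98% ± 0.151 and 14.8% ± 1.72. The INK4 sum with Yme1l siRNA was 0.651 times that with Scr siRNA, a larger drop than that of the kinases they bind. Summed INK4 transcripts per kilobase were 1.76, 1.80 and 1.61 for each unit of summed CDK4 and CDK6 with Scr siRNA and 1.24, 1.34 and 1.19 with Yme1l siRNA, with no overlap. With the longest annotated transcript as the length, these values were 1.41, 1.44 and 1.29 with Scr siRNA and 0.996, 1.07 and 0.954 with Yme1l siRNA. The level of this ratio thus depends on the length used, and the direction of its change does not. By the deposited FPKM, Cdk4 (689 with Scr siRNA and 616 with Yme1l siRNA) stood well above Cdkn2a (383 and 239), the largest INK4 term. Which of the sums is the larger therefore also depends on the quantification. These sums count ARF transcripts with p16INK4a, so they are sums over loci and not over inhibitor transcripts. They leave out Cdkn2d, which is described below.

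The promoters of the 3 start sites in the Cdkn2a and Cdkn2b region are shown because these 2 neighbouring genes both fell. The sequences are the 250 bases before each start site, read on the minus strand of GRCm38.p6 (mm10) and credited to RefSeq, with matches in capitals: Cdkn2a start 1, on the side of the ARF first exon, from chr4:89294620-89294869 (minus strand), Cdkn2a start 2, on the side of the p16INK4a first exon, from chr4:89282193-89282442 (minus strand), and Cdkn2b from chr4:89311033-89311282 (minus strand).
Cdkn2a start 1: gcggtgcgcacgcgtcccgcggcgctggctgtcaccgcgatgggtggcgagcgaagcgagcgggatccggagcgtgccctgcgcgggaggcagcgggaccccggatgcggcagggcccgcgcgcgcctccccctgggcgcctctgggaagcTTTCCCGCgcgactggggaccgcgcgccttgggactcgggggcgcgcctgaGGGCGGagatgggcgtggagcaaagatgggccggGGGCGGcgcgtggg
Cdkn2a start 2: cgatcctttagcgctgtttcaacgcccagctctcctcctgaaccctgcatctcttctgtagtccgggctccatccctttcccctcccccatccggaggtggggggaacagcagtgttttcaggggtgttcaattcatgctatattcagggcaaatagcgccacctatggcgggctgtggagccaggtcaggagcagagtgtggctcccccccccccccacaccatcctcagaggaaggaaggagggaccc
Cdkn2b: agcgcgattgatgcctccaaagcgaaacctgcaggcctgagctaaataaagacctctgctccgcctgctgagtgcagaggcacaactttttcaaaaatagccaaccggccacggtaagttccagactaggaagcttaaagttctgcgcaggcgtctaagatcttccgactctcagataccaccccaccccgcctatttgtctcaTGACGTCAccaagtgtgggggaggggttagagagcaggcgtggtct

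The 7 motifs were searched on both strands of the whole 300 bases: E2F (TTTCCCGC, TTTCGCGC, TTTGCCGC and TTTGGCGC), the cyclic AMP response element CRE (TGACGTCA), AP-1 (TGANTCA), FOXO (GTAAACA), the E-box (CACGTG), the GC box (GGGCGG) and the joint site of ATF4 with C/EBP (TGATGCAAT). Cdkn2b held the CRE at -46 from its start site and a GC box at position 5 after it. Cdkn2a start 1 held the E2F motif TTTCCCGC at -99 and 3 GC boxes, and start 2 held 1 GC box. The 3 promoters thus shared the GC box alone among these motifs, which 35.7% of all promoters held, whereas the CRE was in 1.79% and an E2F motif in 2.26%. Their base composition also differed, with 77.0% G and C at Cdkn2a start 1, 60.3% at start 2 and 57.7% at Cdkn2b, beside a median of 52.7% over all promoters. No motif was found to overlap another in these 3 promoters.

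RefSeq promoters were matched for 7 of the 10 genes, and those of Ccnd1, Ccnd2 and Cdkn1c were not analysed here. The remaining matches were few. Ccnd3 start 1 held a FOXO motif, which 3.65% of all promoters held, and both Ccnd3 starts held GC boxes. Cdkn1b held 1 GC box, and Cdkn2c had 4 GC boxes at start 1 and an E-box at start 2. The AP-1 motif and the ATF4 with C/EBP motif, found in 7.81% and 0.192% of all promoters, were in none of these 10 promoters as spelled here.

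Of the CIP/KIP inhibitors, Cdkn1b fell and Cdkn1c was not called. Cdkn1b (XLOC_036084, chr6:134920401-134925513, plus strand) encodes p27KIP1, an inhibitor of cyclin E with CDK2 whose gene is a target of FOXO factors and whose protein is held mainly by its rate of breakdown. It had 87.8, 87.2 and 94.7 CPM with Scr siRNA and 62.3, 66.8 and 63.2 CPM with Yme1l siRNA, with a wide gap between the groups. The log2 fold change was -0.49 (SE 0.07, 95% interval -0.64 to -0.33, adjusted p = 0.000415 by edgeR). It is a fall of a size that 43.6% of all loci exceeded in either direction.

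Cdkn1c (XLOC_042243, chr7:143458339-143461050, minus strand) encodes p57KIP2 and is an imprinted gene. It was among the least abundant of the 10, with 4.18, 2.66 and 3.03 CPM with Scr siRNA (181, 96 and 128 counts) and 2.82, 3.08 and 3.39 CPM with Yme1l siRNA (125, 134 and 143 counts). The groups overlapped, and Scr siRNA replicate 1 was the highest library. The log2 fold change was -0.09 (SE 0.20, 95% interval -0.55 to 0.37, adjusted p = 0.723 by edgeR), so changes within this interval could not be shown with these libraries, whose Scr siRNA values had a coefficient of variation of 24.1%. Without Scr siRNA replicate 1 the log2 fold change was 0.11 and the gene was again not called. The ratio of Cdkn1c to Cdkn1b overlapped between the groups (log2 difference 0.42, exact permutation p = 0.3, adjusted 0.30).

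**Figure D3:**
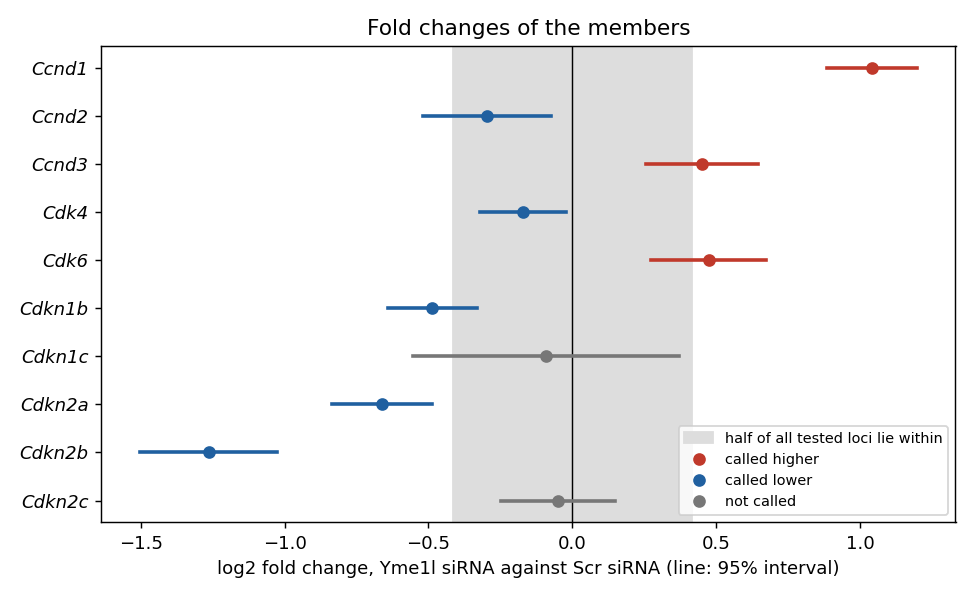
log2 fold change of each gene with Yme1l siRNA against Scr siRNA (x axis) as a point with its 95% interval as a line, red where called higher, blue where called lower and grey where not called. The grey band spans the absolute log2 fold change of 0.42 within which 50 percent of all tested loci lie. Ccnd1 and Cdkn2b lie furthest out, the intervals of Ccnd2 and Cdk4 end close to 0, and those of Cdkn1c and Cdkn2c include 0.

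Per kilobase of exon, the 10 genes spanned a wide range of levels. Cdkn2a and Cdk4 stood highest with Scr siRNA, at 232 ± 14.6 and 160 ± 2.94 CPM per kilobase (SD, n = 3), with no overlap between them, and at 147 ± 7.92 and 142 ± 4.50 with Yme1l siRNA, where their libraries overlapped. Ccnd2 and Ccnd1 came next at 49.9 ± 6.10 and 45.7 ± 2.02, overlapping, and with Yme1l siRNA they stood at 40.6 ± 2.26 and 94.0 ± 3.11, wholly apart. With the longest transcript as the length, Ccnd2 (68.0 to 84.6 CPM per kilobase) lay wholly above Ccnd1 (54.7 to 59.7) with Scr siRNA. By that length Cdk4 (219 to 233) lay wholly above Cdkn2a (185 to 204) with Yme1l siRNA, so both overlaps depend on the length used. By annotated exons the other genes stood lower. Cdkn2c was at 27.7 ± 1.70 and 26.8 ± 2.53. Below it with Scr siRNA lay Cdkn1b (19.7 ± 0.921), Cdkn2b (18.4 ± 2.02) and Ccnd3 (16.0 ± 1.26), each overlapping its neighbour in this order, whereas with Yme1l siRNA Ccnd3 (21.8 ± 1.56), Cdkn1b (14.1 ± 0.517) and Cdkn2b (7.67 ± 0.456) no longer overlapped. Cdkn1c (1.61 ± 0.389) and Cdk6 (1.51 ± 0.137) were lowest and overlapped with Scr siRNA, and with Yme1l siRNA Cdk6 (2.10 ± 0.1004) was above Cdkn1c (1.52 ± 0.141) in all 3 libraries. By rank with Scr siRNA, Ccnd3 was number 8 of the 10 by annotated exons and number 5 by the longest transcript. The deposited FPKM, 1 value a group from the authors' own quantification, gave another order, with Cdk4 (689 and 616) above Cdkn2a (383 and 239), and Ccnd2 (87.4) and Ccnd3 (81.7) above Ccnd1 (59.1) with Scr siRNA. Which step sets these differences was not tested.

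For each gene, the most alike pattern was sought among the other 9 genes and the 62 tested genes of 8 lists of known partners and regulators, by the root mean square (RMS) difference of log2 CPM centred on each gene's own mean over the 6 libraries. Ccnd1 was most like Myc (RMS difference 0.124 log2 units), and Cdk6 and Ccnd3 were most like each other (0.0438). Cdkn2a was most like Tfdp2 (0.0668), a partner of E2F factors, and Cdkn1b most like Dmtf1 (0.0762), a factor known to act on the ARF promoter. Cdkn2b was most like Rb1 (0.169), Ccnd2 most like Ets1 (0.0628), Cdk4 most like Zbtb17 (0.0426), Cdkn2c most like Mtap (0.0477), a neighbour of the Cdkn2a region, and Cdkn1c had no close match: its smallest difference, 0.203 from Smad4, was about its own RMS deviation from its mean, 0.208. With 2 groups of 3 libraries, genes that differ by the same amount between the groups are alike by this measure whatever else they share. The pairs of Cdk4, Cdkn1c and Cdkn2c differ little between groups (Zbtb17, Smad4 and Mtap were not called, with log2 fold changes of -0.10, -0.21 and -0.14). Without Yme1l siRNA replicate 3, Smad4 (-0.26, adjusted p = 0.0324 by edgeR) and Mtap (-0.21, adjusted p = 0.0465) were called lower.

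The genes around the D-type cyclins and their inhibitors were followed in 8 lists. Of the 62 tested genes in them, 23 rose and 20 fell, 69.4% called beside 58.0% of all loci, and 13 fell without Yme1l siRNA replicate 1. The clearest common direction was in the cyclin E, cyclin A and CDK2 list, whose 5 tested genes all rose (median log2 fold change 0.69, beside 0.01 for all loci). Of all loci, 28.4% were called higher. The lists were chosen with earlier results of these data known, so this count is a description and not a test. Whether these rises follow from the changes of the D-type cyclins and inhibitors was not tested. Ccne2, a cyclin E gene and known E2F target, rose from 26.3 ± 3.30 to 87.3 ± 5.04 CPM (SD, n = 3, log2 fold change 1.73, adjusted p = 7.67e-06 by edgeR), and Ccne1 from 21.0 ± 1.08 to 51.9 ± 3.36 CPM (1.304, adjusted p = 8.68e-06). Cdc25a, the phosphatase that activates CDK2, rose from 33.5 ± 1.15 to 51.5 ± 1.14 CPM (0.62, adjusted p = 7.75e-05). Ccna1, a germ cell cyclin A, had 1 count in all and was not tested.

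Among the 13 pocket proteins and E2F factors, 7 rose and 4 fell (median 0.24, 84.6% called beside 58.0% of all loci). Tfdp1, the common dimer partner of E2F factors, rose from 89.3 ± 2.15 to 248 ± 1.27 CPM (log2 fold change 1.47, SE 0.06, adjusted p = 3.26e-06 by edgeR), and the repressor E2f8, itself an E2F target, rose from 21.0 ± 1.95 to 51.5 ± 2.28 CPM (1.29, adjusted p = 1.34e-05). Rbl2, which encodes the pocket protein p130 of resting cells, fell from 43.3 ± 3.65 to 19.8 ± 2.22 CPM (-1.13, adjusted p = 4.74e-05). Rb1, the gene of RB itself, fell from 7.33 ± 0.650 to 2.90 ± 0.249 CPM (-1.33, adjusted p = 0.000100), and Tfdp2 from 47.7 ± 1.63 to 31.2 ± 0.293 CPM (-0.61, adjusted p = 8.31e-05). The name Rb1 is carried by 3 loci of the count table, and these values are those of the locus with the most counts. The other loci of that name were not analysed here, so the values are not those of the whole gene.

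The 2 remaining CDK inhibitors were measured as a separate list. Cdkn1a, which encodes p21CIP1, a target of p53, had 66.9 ± 3.15 and 48.8 ± 9.74 CPM (log2 fold change -0.46, SE 0.13, adjusted p = 0.0149 by edgeR), and without Yme1l siRNA replicate 1 it was not called (-0.42, adjusted p = 0.0567). Cdkn2d, which encodes p19INK4d, had 11.9 ± 1.90 and 12.7 ± 0.909 CPM and was not called (0.09, adjusted p = 0.564). Of the 4 genes of the list of ARF, MDM2 and p53, 3 rose and 1 fell (median 0.32, 100% called beside 58.0% of all loci). Npm1, whose protein holds ARF in the nucleolus, rose from 610 ± 28.8 to 897 ± 141 CPM (0.56, adjusted p = 0.00324), and Mdm2 from 50.8 ± 2.70 to 68.0 ± 3.40 CPM (0.42, adjusted p = 0.00110). Trp53, the gene of p53, had 186 ± 12.8 and 216 ± 1.46 CPM (0.22, adjusted p = 0.0310) and was not called without Scr siRNA replicate 2 (adjusted p = 0.0740), Scr siRNA replicate 3 (adjusted p = 0.0917) or Yme1l siRNA replicate 1 (adjusted p = 0.0863).

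The list for control of the Cdkn2a and Cdkn2b region, mostly Polycomb genes that are known to keep it silent, had 3 of 15 higher and 3 lower, 40.0% called, under the share of all loci (median -0.14). Eed and Suz12, both of Polycomb repressive complex 2, rose by log2 0.70 (29.5 ± 0.337 to 48.0 ± 1.78 CPM, adjusted p = 4.75e-05 by edgeR) and 0.68 (116 ± 9.38 to 186 ± 12.2 CPM, adjusted p = 0.000227). Ezh2, the catalytic subunit of the same complex, named here after its values were seen, had 65.0 ± 6.37 and 54.4 ± 11.5 CPM and was not called (-0.26, adjusted p = 0.152). Ring1, of Polycomb repressive complex 1, fell from 27.3 ± 0.699 to 16.1 ± 1.44 CPM (-0.76, adjusted p = 0.000149). Dmtf1, an activator of the ARF promoter, fell by 0.40 on the log2 scale (adjusted p = 0.00137), and Ets1, known to act on the p16INK4a promoter, by 0.27 (adjusted p = 0.0169).

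Of the 9 tested genes for turnover of p27KIP1 and D-type cyclins, 1 rose and 6 fell (median -0.21, 77.8% called beside 58.0% of all loci). Cks1b, the cofactor that presents p27KIP1 to its ubiquitin ligase, rose from 81.2 ± 4.22 to 126 ± 5.66 CPM (log2 fold change 0.64, adjusted p = 0.000145 by edgeR), while Skp1a, a core subunit of that ligase, fell from 213 ± 15.9 to 145 ± 9.89 CPM (-0.56, adjusted p = 0.000622). Fbxo4, an F-box protein linked to cyclin D1, had a log2 fold change of -0.30 (adjusted p = 0.00981). Skp2, the F-box protein of the p27KIP1 ligase, had 2 counts in Yme1l siRNA replicate 1 and 0 in every other library and was not tested. Whether its reads were counted at another locus was not tested, so this count does not show that the gene is silent. Fbxo31 was not analysed here.

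In the list for CDK activation and folding, 1 of 5 rose and 1 fell (median 0.13, 40.0% called beside 58.0% of all loci). Cdk7, the kinase that activates CDK4, CDK6 and CDK2, fell from 48.5 ± 3.20 to 35.4 ± 2.33 CPM (log2 fold change -0.45, adjusted p = 0.00135 by edgeR). Hsp90ab1, the chaperone that folds CDK4 together with CDC37, had a log2 fold change of 0.36 (adjusted p = 0.0156) and was not called without Scr siRNA replicate 1 (0.34, adjusted p = 0.0551) or Scr siRNA replicate 2 (0.34, adjusted p = 0.0629). Cdc37 was not called (0.13, adjusted p = 0.125).

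Of the 9 transcription factors known to act on these genes, 3 rose and 4 fell (median -0.21, 77.8% called beside 58.0% of all loci). Besides Myc, described above with Cdk4, the locus of Foxm1, a driver of later cell cycle genes, rose by log2 1.05 (adjusted p = 4.29e-05 by edgeR), and its counts are joined with those of Gm44596, Nrip2 and Tex52. Smad3, which carries TGF-beta signals to genes such as Cdkn2b, fell by 0.52 on the log2 scale (adjusted p = 0.000415), whereas Smad2, which carries the same signals and was chosen after its values were seen, rose by 0.45 (38.1 ± 1.24 to 52.0 ± 2.33 CPM, adjusted p = 0.000519). Smad4, the common partner of SMAD2 and SMAD3, was not called (-0.21, adjusted p = 0.0627), and it was called without Yme1l siRNA replicate 3 as given above.

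**Figure D4:**
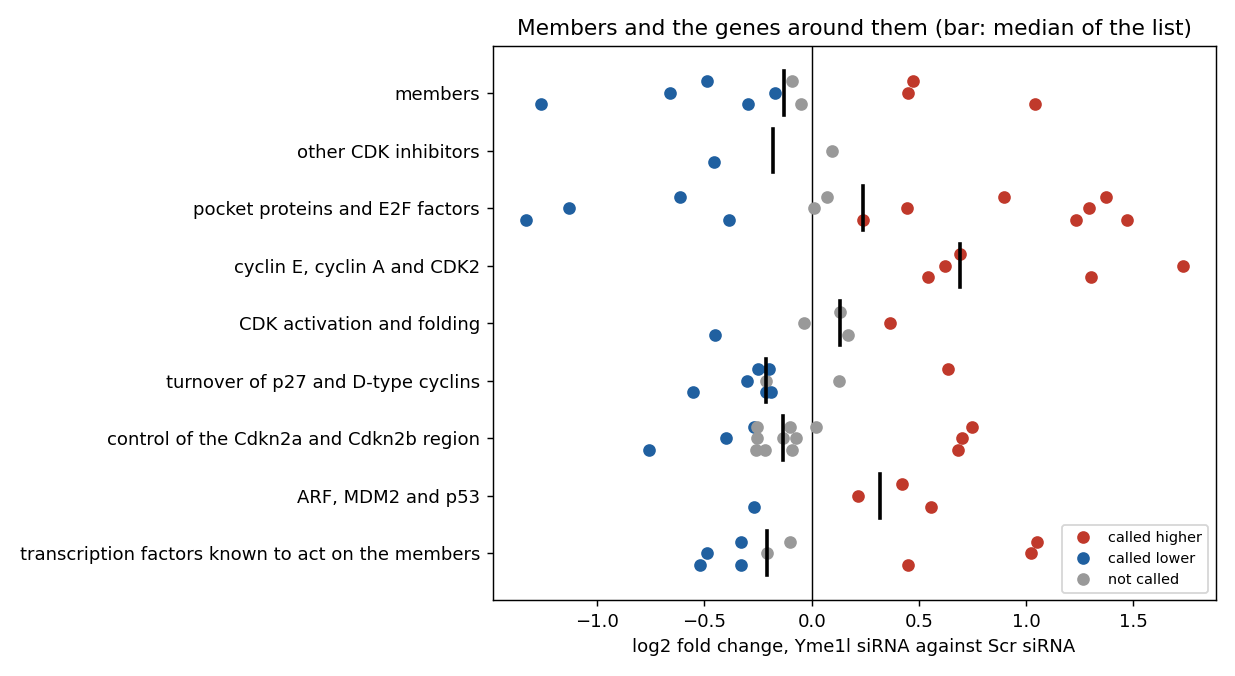
log2 fold change with Yme1l siRNA against Scr siRNA (x axis) of each tested gene, as 1 point a gene, for the 10 genes described here (top row) and for the 8 lists around them, red where called higher, blue where called lower and grey where not called, with the black bar at the median of the list. All 5 genes of the cyclin E, cyclin A and CDK2 list lie to the right of 0, and the other lists hold points on both sides.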

How the data were processed

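RNA was measured by poly(A) sequencing (stranded TruSeq kit, NovaSeq, paired-end) in 3 Scr siRNA and 3 Yme1l siRNA libraries, grouped by title. The authors mapped reads to mm10 (GRCm38) with HISAT2 2.0.4, assembled transcripts with StringTie 1.3.3 and compared groups with Cuffdiff 2.2.1. The deposited raw counts per locus and library (37260605 to 45205207 in all) were used; the counting program and its use of strand are not given in the sources used here. The deposited FPKM, 1 value for each group, were used for levels only, and the authors' own fold changes and p-values were not used. Of 51499 loci, 635 join several gene names.

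Counts were fitted with edgeR 4.0.16 (filterByExpr with a minimum count of 10, TMM factors, quasi-likelihood F test, Benjamini-Hochberg over 14499 loci, threshold 0.05), after a check on simulated data. The biological coefficient of variation, a single value common to all loci, was 0.131. The size of change that 3 against 3 libraries can show differs between genes. Among the 10 genes the SE of the log2 fold change ran from 0.07 (Cdk4) to 0.20 (Cdkn1c). Alternatives were RLE, upper-quartile and no factors, DESeq2 1.42.0, limma 3.58.1 (voom), other filters, a replicate block, removal of mtDNA loci and each library left out. Lengths came from GENCODE M21 on the same build, near-identical transcripts from BLAST 2.17.0, and promoters from RefSeq. The members and lists were chosen with earlier results of these data known. Named genes were the 10 members, Yme1l1, the 3 tested genes with the lowest adjusted p in each list, and the most alike gene of each member.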

Additional observations from a re-analysis of the deposited data

How the results depend on the processing

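For 6 of the 10 genes the call kept its direction and passed the threshold in each of the 16 alternatives run: the highest adjusted p was 0.000249 for Ccnd1, 0.0142 for Ccnd3, 0.0118 for Cdk6, 0.00387 for Cdkn1b, 0.00173 for Cdkn2a and 0.000376 for Cdkn2b. Ccnd2 was no longer called with total counts as the only scaling (-0.24, adjusted p = 0.0870) or at a threshold of 0.01 (-0.30), and its log2 fold change was -0.36 to -0.20 with 1 library left out. Cdk4 was no longer called with RLE factors (-0.17), upper-quartile factors (-0.15), total counts (-0.11, adjusted p = 0.200), no filter (-0.18), a mean of at least 50 counts (-0.14) or a threshold of 0.01 (-0.17), and was -0.20 to -0.15 with 1 library left out. The number of the 10 genes called lower was 3 with total counts and at the threshold of 0.01, and 3 to 5 with 1 library left out, while the number higher stayed at 3. The number of surrounding genes called lower was 20, and 13 with total counts, 12 at the threshold of 0.01 and 13 to 23 with 1 library left out, the lowest without Yme1l siRNA replicate 1. Genes that were not called changed sign: Cdkn2c with total counts (0.016) and over a range of -0.13 to 0.0088 with 1 library left out, Cdkn1c over -0.23 to 0.11, and Cdkn2d over -0.036 to 0.18. The cause was not tested. Total counts moved the median of all loci to 0.07. Same-numbered libraries of the groups had correlations of their deviations over loci of 0.04, 0.12 and 0.19, and differently numbered ones -0.18 to 0.09. Scr siRNA replicate 1 correlated best with Yme1l siRNA replicate 2 (0.09), whereas every other library correlated best with the library of its own number. The labels do not say what a shared number stands for, so the numbers were not taken as pairs in the main fit, and the replicate block was run as an alternative. With the replicate block, 4227 loci were called higher and 4460 lower, against 4123 and 4288, and Cdk4 was no longer called (-0.17, adjusted p = 0.0597), whereas the other 9 genes kept their call. Cdkn1c had 96 to 181 counts and the widest 95% interval of the 10, and how much of that width is depth and how much spread between libraries was not tested.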
